A study of Homo sapiens with 6 samples.

Results

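The 10 genes described here encode S100 calcium-binding proteins (S100A8, S100A9, S100P, S100A4, S100A2, S100A6, S100A10, S100A11, S100A13 and S100A16). All 10 were among the 20824 genes listed in at least 1 of the 6 libraries, and 9 of them were among the 14812 genes with enough counts to be tested. They were chosen by name with their estimated counts in the knockdown and scramble libraries already known, so their differences between these groups are given here as a description without a test. Polyadenylated RNA was sequenced from A549, a human lung adenocarcinoma line, that carried an shRNA against C19orf12 (3 libraries) or a scrambled shRNA that served as the wild-type control (3 libraries). Both groups were bulk cultures of the same line. The titles of the 3 knockdown libraries share a stem and differ only in their last number, but no label states how many hairpin sequences were used. Nor do the labels say how long the cells carried the shRNA or whether the replicates came from separate cultures. Any p-value therefore measures only the spread between these libraries.

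S100 proteins are small calcium-binding proteins of the EF-hand type that mostly work as dimers. Binding of calcium opens a surface on the dimer that then binds other proteins, among them annexins, myosins and ezrin, and several S100 proteins are also released from cells and bind receptors such as RAGE (gene AGER) and TLR4. S100A8 and S100A9 form the heterodimer calprotectin, which is abundant in neutrophils and withholds zinc and manganese from microbes. Most human S100 genes lie together on the long arm of chromosome 1, while S100P lies on chromosome 4.

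Totals of estimated counts ran from 10229890 to 10261193 in the knockdown libraries and from 10275679 to 10647587 in the scramble libraries. C19orf12 measured 24.2, 26.4 and 25.2 CPM (counts scaled to a common library size by TMM) in knockdown replicates 1, 2 and 3, against 42.5, 41.1 and 63.3 CPM in scramble replicates 1, 2 and 3, and its log2 fold change, which here is always knockdown over scramble, was -0.95 (SE 0.2, adjusted p = 0.015 by edgeR). That call was lost without any 1 knockdown library (adjusted p = 0.0755 to 0.0908). Scramble replicate 3 was unlike both other controls, since its gene-wise log2 CPM correlated at 0.952 and 0.953 with scramble replicates 1 and 2, which correlated at 0.991 with each other and at 0.959 to 0.960 with the knockdown libraries. Each of the 9 S100 genes with enough counts to be tested was higher in it than in the mean of scramble replicates 1 and 2, by 0.46 to 0.88 on the log2 scale with a median of 0.57. Over all 14812 tested genes the median of this shift was 0.14, and over the tenth with the shortest transcripts, to which all tested members but S100A16 belong by length, it was 0.44. Whether transcript length plays a part in the S100 values of this library was not tested. Values are therefore given with and without this library for the tested members, and for many of the other genes and lists. Of the 14812 genes, 11.5% were called changed by edgeR at an adjusted p under 0.05. Without scramble replicate 3 the share was 49.5% of 15029 genes.

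Of the 10 genes, S100A9, S100P and S100A4 had the highest fold changes and are shown by the sequence just before their start sites, next to that of S100A8, the partner of S100A9, and of S100A6, the most abundant S100 gene. Each stretch is the 150 bases before the start site in RefSeq on GRCh38.p14, 5′ to 3′ on the gene's strand, and capitals mark matches to any of the 5 motifs searched.
S100A9: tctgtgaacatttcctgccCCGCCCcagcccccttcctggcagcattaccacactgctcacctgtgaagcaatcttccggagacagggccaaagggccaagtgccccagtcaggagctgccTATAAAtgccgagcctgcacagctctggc
S100A8: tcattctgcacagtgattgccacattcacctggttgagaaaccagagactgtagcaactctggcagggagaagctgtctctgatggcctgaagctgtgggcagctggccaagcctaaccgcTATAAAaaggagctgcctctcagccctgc
S100P: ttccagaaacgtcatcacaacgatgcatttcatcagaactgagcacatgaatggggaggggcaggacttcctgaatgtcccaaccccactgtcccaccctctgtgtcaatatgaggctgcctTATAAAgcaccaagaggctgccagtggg
S100A4: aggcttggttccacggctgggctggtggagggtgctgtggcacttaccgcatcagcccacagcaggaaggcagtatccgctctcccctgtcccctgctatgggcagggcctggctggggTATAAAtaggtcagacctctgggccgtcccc
S100A6: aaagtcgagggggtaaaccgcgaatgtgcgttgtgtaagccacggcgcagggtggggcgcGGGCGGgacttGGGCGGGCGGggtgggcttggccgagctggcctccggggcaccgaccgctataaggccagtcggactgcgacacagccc

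The stretches lie at chr1:153357704-153357853 on the plus strand for S100A9, chr1:153391074-153391223 on the minus strand for S100A8, chr4:6693728-6693877 on the plus strand for S100P, chr1:153545807-153545956 on the minus strand for S100A4 and chr1:153535992-153536141 on the minus strand for S100A6. RefSeq lists 3 start sites for S100A8, and the one shown is that with a TATA box match closest to it. The letters TATAAA began 29 bases before the start in S100A9, 29 in S100A8, 28 in S100P and 31 in S100A4. Among the 10 genes, 5 had these letters on their own strand between 40 and 20 bases before a start site (S100A13 was the other), and 8 of 19 S100 genes in the promoter table did, against 2.92% of all 27305 genes in that table. This window was set after the matches were seen. S100A8 has the match before the start site shown and was barely detected. Whether the match plays a part in the values below was not tested. In S100A6 the letters GGGCGG occurred 3 times, the last 2 of them overlapping by 2 bases, and GGGCGG or its reverse complement was found in 45% of 35116 promoters of 300 bases. Searched on both strands over the same 300 bases were also AP-1 (TGANTCA, in 7.71% of all promoters), the C/EBP core (TTGCNNAA, 10.5%) and STAT (TTCNNNGAA, 7.66%), which are not in the 5 stretches shown. TATAAA on either strand was in 11.5% of all promoters. S100A2 had 1 AP-1 match and S100A11 had 1 C/EBP core match. Near matches, such as the letters TATAAG in the S100A6 stretch, were not counted. A match to letters is not a bound site, and no binding was measured in this series.

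S100A9 was close to undetected in scramble cells and moderately expressed in knockdown cells. It had 223, 233 and 236 estimated counts in knockdown replicates 1, 2 and 3, against 1, 3 and 5 in scramble replicates 1, 2 and 3. Scaled to depth these are 22.3, 23.3 and 23.4 CPM in the knockdown libraries, against 0.0929, 0.279 and 0.484 CPM in the scramble libraries. The knockdown libraries thus lay close together and far above all 3 scramble libraries. The summed counts of 692 in knockdown and 9 in scramble give a ratio of 81.5 after scaling for depth, with a 95% exact binomial interval of 42.7 to 179 that covers counting error only. The log2 fold change from the fit across all genes and libraries was 6.29 (SE 0.32), the highest of the 14812 genes tested. Without scramble replicate 3 it was 6.86 (SE 0.26) and no longer the highest, since the keratin gene KRT6A was at 6.96. In FPKM, which allows for transcript length, S100A9 averaged 40.2 ± 1.12 in knockdown and 0.51 ± 0.335 in scramble (SD, n = 3 each), and its rank among all genes by mean FPKM was 1784 in knockdown and 14757 in scramble.

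S100A8, with which S100A9 forms calprotectin, stayed at the limit of detection. It had 0, 1 and 2 estimated counts in knockdown replicates 1, 2 and 3 and was listed in none of the scramble libraries. Both groups are at or under the limit of 3 counts, so no fold change is given, and the gene had too few counts to be tested. Of the 695 counts of S100A8 and S100A9 together in the knockdown libraries, S100A8 held 0.432% (95% exact binomial interval 0.0891% to 1.26%, counting error only). In the scramble libraries it held 0 of 9 counts, which allows a share of up to 33.3%, so a change in the proportion of the pair could not be seen from that side. S100A12, another S100 gene that neutrophils make in quantity, was listed in no library.

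Other genes of neutrophils and monocytes were low or unlisted in both groups. Of 12 markers of these cells, MPO, TYROBP and FCN1 were listed in no library. The summed level of the list was 4.80, 4.99 and 4.17 CPM in the knockdown libraries, against 5.48, 3.81 and 5.04 CPM in the scramble libraries, so the groups overlapped. ITGAM, an integrin chain of myeloid cells, averaged 2.00 CPM in knockdown and 2.27 CPM in scramble (log2 fold change -0.18, SE 0.31), PTPRC, the leukocyte antigen CD45, averaged 1.26 and 1.12 CPM in knockdown and scramble (0.16, SE 0.34), and ELANE had 3 to 5 counts in knockdown and 3 to 7 in scramble. With edgeR 0 of the 2 tested markers were called, 0 had an unadjusted p under 0.05, and DESeq2 and limma-voom called 0. The 3 most abundant markers of the line itself were high in every library. KRT18, a simple epithelial keratin, was at 5504 ± 81.6 CPM in knockdown and 2222 ± 527 CPM in scramble (log2 fold change 1.31, adjusted p = 0.00135 by edgeR). The metabolic enzymes were ALDH1A1 (6362 and 5703 CPM) and AKR1B10 (6107 and 5823 CPM in knockdown and scramble). Other markers of that list, named outside the rule, were low. EPCAM averaged 2.36 CPM in knockdown and 1.12 CPM in scramble. KRT19 averaged 2.26 CPM in knockdown and 0.192 CPM in scramble, with 0 counts in scramble replicate 1. The list of 10 epithelial and A549 markers summed to 25546 to 26006 CPM in knockdown and 16182 to 17736 CPM in scramble. Of its 10 genes 5 rose, or 50% beside 5.89% of all genes called higher (9 of 10, beside 25.7%, without scramble replicate 3). Those 5 were KRT18, KRT19 and, named outside the rule, KRT8, FGA and FGB. KRT8 averaged 4615 CPM in knockdown and 1331 CPM in scramble, FGA 783 and 29.7 CPM, and FGB 445 and 14.6 CPM. The list was chosen with earlier results of these data known, so nothing is read from this share.

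**Figure D1:**
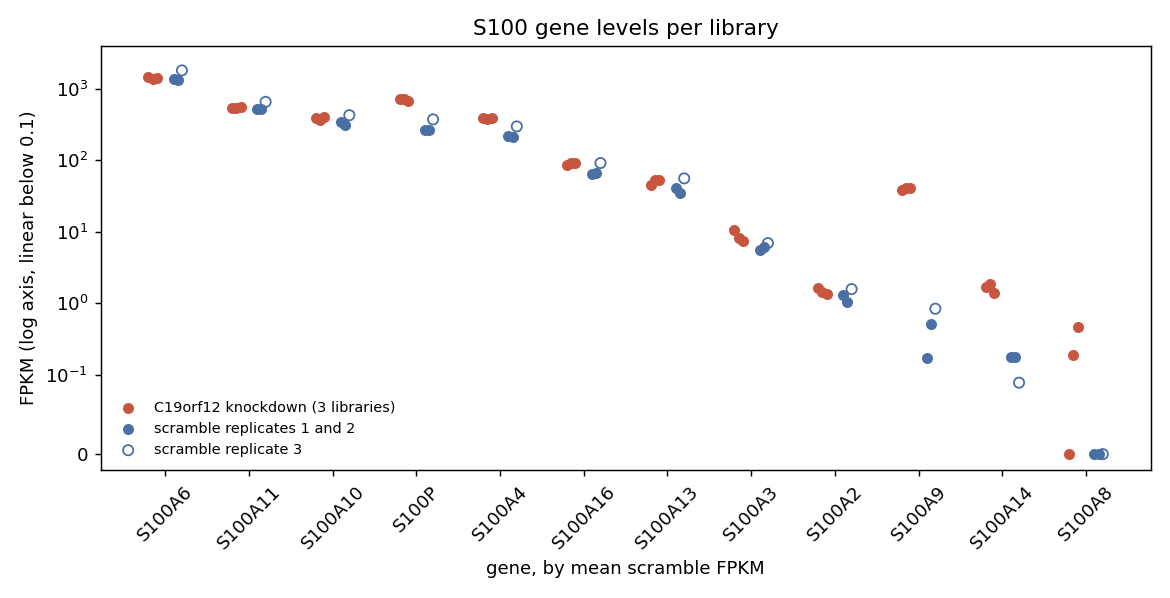
FPKM of the 10 S100 genes and of S100A3 and S100A14 in each of the 6 libraries (vertical axis, logarithmic above 0.1 and linear below it), with genes ordered by their mean scramble level. Red points are the 3 knockdown libraries and blue points the 3 scramble libraries, with scramble replicate 3 open; S100A9 stands at about 40.2 FPKM in knockdown against 0.51 FPKM in scramble, while S100A6 is at 1333 FPKM or above in all 6 libraries.

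S100P and S100A4 were the other members whose knockdown libraries lay wholly above the scramble libraries. S100P, which binds ezrin and was first found in placenta, measured 354, 354 and 332 CPM in knockdown replicates 1, 2 and 3, against 124, 123 and 187 CPM in scramble replicates 1, 2 and 3. Even its lowest knockdown library was well above scramble replicate 3, the highest of the controls. The log2 fold change was 1.26 (SE 0.19), a 2.40-fold difference of means, and 1.49 (SE 0.04) without scramble replicate 3. S100A4, which binds the heavy chain of non-muscle myosin and is studied in tumour cell migration, measured 199.9, 194 and 199 CPM in the knockdown libraries, against 106, 100 and 153 CPM in the scramble libraries. Its log2 fold change was 0.73 (SE 0.19), a 1.65-fold difference of means, and 0.94 (SE 0.05) without scramble replicate 3. With these 3 genes, 3 of the 9 tested members were called higher over all genes, where 11.5% of all genes were called, 5.89% as higher and 5.64% as lower in knockdown. Without scramble replicate 3 the count was 8 of 9, S100A2 being the exception, beside 25.7% of all genes called higher and 23.8% called lower. The S100A4 call was lost when any library other than scramble replicate 3 was left out, with log2 fold changes of 0.60 to 0.74. Groups did not overlap in 3 of the 10 members, all higher in knockdown, and in that direction 18.4% of all tested genes did not overlap. The members were chosen on this contrast, so these calls are no test of them, and nothing is read from the shares.

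**Figure D2:**
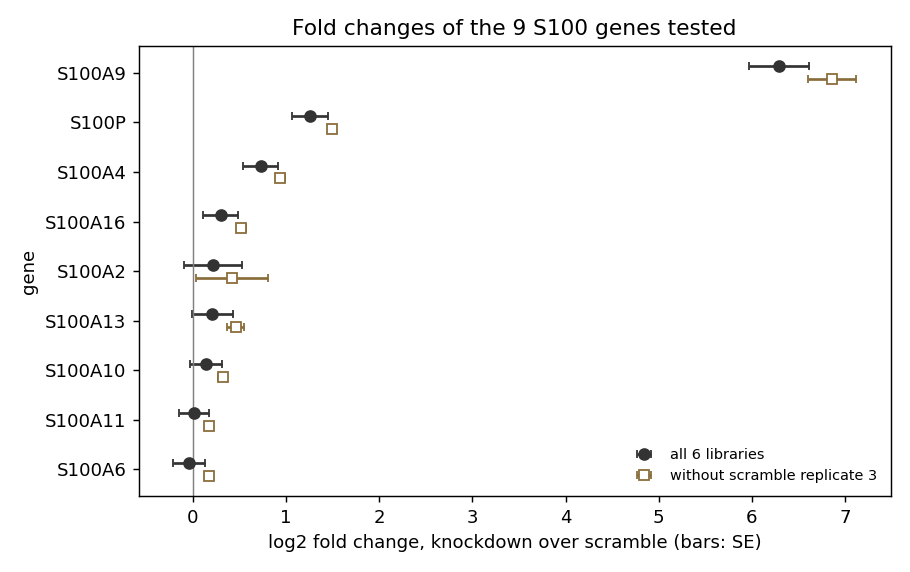
Log2 fold change (horizontal axis, knockdown over scramble) of the 9 S100 genes with enough counts to be tested, with bars for the SE. Filled circles use all 6 libraries and open squares leave out scramble replicate 3, which moves every gene to the right, S100A6 from -0.04 to 0.17 and S100A9 from 6.29 to 6.86.

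For S100A6, S100A11 and S100A10, the most abundant S100 genes of the scramble libraries, the differences lay within the spread of the controls. S100A6, or calcyclin, measured 978, 929 and 954 CPM in knockdown replicates 1, 2 and 3, against 863, 836 and 1235 CPM in scramble replicates 1, 2 and 3. The knockdown libraries lay above scramble replicates 1 and 2 and below scramble replicate 3, so the sign of the log2 fold change turned with that library, being -0.04 (SE 0.17) with it and 0.17 (SE 0.03) without it. S100A11, which binds annexin A1, measured 311, 319 and 326 CPM in the knockdown libraries, against 284, 281 and 387 CPM in the scramble libraries (log2 fold change 0.01, SE 0.16, and 0.17, SE 0.04, without scramble replicate 3). RefSeq names 10 pseudogene copies of S100A11, so its count is uncertain where reads were divided among them. S100A10, whose loops no longer bind calcium and which forms a complex with annexin A2 at the cell membrane, measured 418, 396 and 428 CPM in the knockdown libraries, against 351, 310.4 and 465 CPM in the scramble libraries. Its log2 fold change was 0.14 (SE 0.17), and 0.32 (SE 0.05) without scramble replicate 3.

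S100A16 and S100A13 followed the same order of libraries at lower levels. S100A16 measured 106, 113 and 112 CPM in knockdown replicates 1, 2 and 3, against 75.9, 77.5 and 116 CPM in scramble replicates 1, 2 and 3. Scramble replicate 3 alone reached above the knockdown range, and the log2 fold change was 0.30 (SE 0.19) with it and 0.52 (SE 0.05) without it. S100A13, which takes part in the unconventional release of FGF1, measured 30.7, 35.4 and 35.3 CPM in the knockdown libraries, against 26.8, 22.3 and 38.5 CPM in the scramble libraries (log2 fold change 0.21, SE 0.22, and 0.46, SE 0.09, without scramble replicate 3). S100A13 overlaps S100A1 on the opposite strand, and no strand setting of the counting is given in the sources used here, so reads of the pair cannot be told apart; S100A1 itself had 1 to 3 counts per library. S100A2, a target gene of p63 in squamous epithelium, was near the limit, and its groups overlapped. It had 16, 14 and 13 counts in the knockdown libraries and 13, 10 and 16 in the scramble libraries. The log2 fold change was 0.22 (SE 0.31), and 0.42 (SE 0.39) without scramble replicate 3.

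Ordered by mean FPKM in the knockdown libraries, the 10 genes ran from S100A6 (1418 ± 37.0) through S100P (704 ± 24.2), S100A11 (548 ± 14.6), S100A4 (393 ± 7.81), S100A10 (386 ± 16.1), S100A16 (88.9 ± 3.33), S100A13 (50.6 ± 4.27), S100A9 (40.2 ± 1.12) and S100A2 (1.47 ± 0.163) to S100A8 (0.217 ± 0.231; SD, n = 3). S100A4 and S100A10 overlapped there. In the scramble libraries the order was S100A6 (1506 ± 270.5), S100A11 (566 ± 81.1), S100A10 (362 ± 60.8), S100P (304 ± 61.6), S100A4 (244 ± 47.7), S100A16 (74.3 ± 15.2), S100A13 (44.2 ± 10.8), S100A2 (1.31 ± 0.275), S100A9 (0.51 ± 0.335) and S100A8 at 0 (SD, n = 3). The ranges of S100A10, S100P and S100A4 overlapped in scramble from one neighbour to the next. S100P thus stood above S100A11, S100A10 and S100A4 in knockdown and below S100A11 and S100A10 in scramble, and S100A6 was first in both.

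The make-up of the S100 transcripts differed little among the scramble libraries, scramble replicate 3 included. S100A6 held 39.5%, 38.4% and 38.9% of the summed FPKM of S100 genes in knockdown replicates 1, 2 and 3, against 48.2%, 48.4% and 48.6% in scramble replicates 1, 2 and 3. S100P held 19.5%, 20% and 18.5% in the knockdown libraries, against 9.43%, 9.76% and 10% in the scramble libraries. S100A4 held 10.7% to 10.8% in knockdown and 7.71% to 8% in scramble, and S100A9 held 1.06% to 1.13% in knockdown and 0.00599% to 0.0225% in scramble. S100A11 held 14.5% to 15.4% in knockdown and 17.6% to 18.8% in scramble, and S100A10 held 10.2% to 10.9% in knockdown and 11.3% to 12.3% in scramble. The groups did not overlap in the share of any of these 6 genes, whereas they did for S100A16 (2.31% to 2.52% in knockdown and 2.27% to 2.46% in scramble) and S100A13 (1.24% to 1.48% in knockdown and 1.27% to 1.5% in scramble). Shares sum to 100%, so the lower shares of S100A6, S100A11 and S100A10 do not show lower levels of these genes. By CPM rather than share, the groups did not overlap in 37.0% of all tested genes. The members were chosen on this contrast, so nothing is read from how many shares did not overlap. All listed S100 genes together made up 0.787%, 0.764% and 0.783% of the summed FPKM of all genes in the knockdown libraries, against 0.629%, 0.614% and 0.739% in the scramble libraries.

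**Figure D3:**
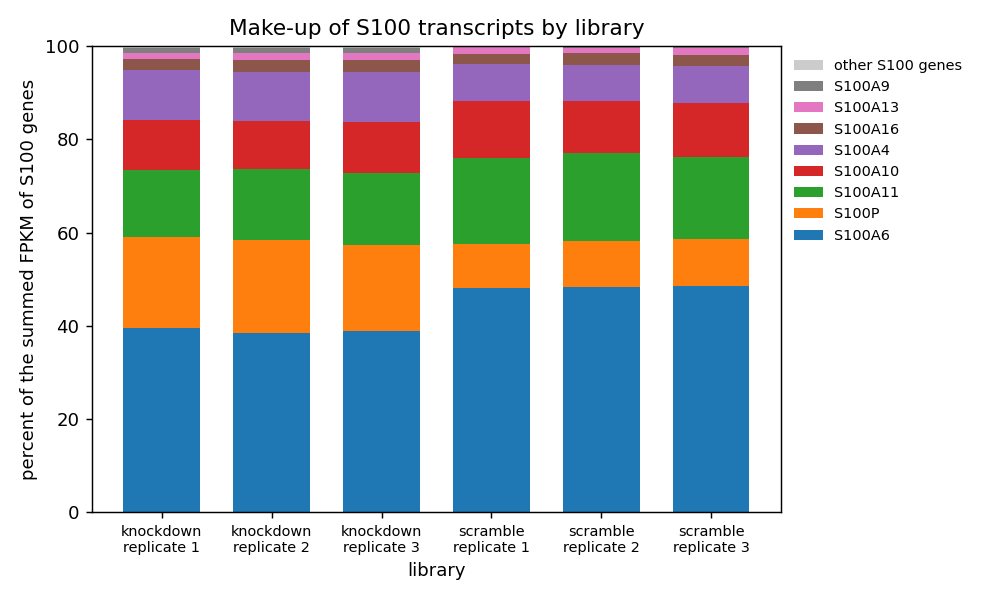
Share of each S100 gene in the summed FPKM of S100 genes (vertical axis, percent) in the 3 knockdown libraries at the left and the 3 scramble libraries at the right. The 3 scramble bars, replicate 3 included, are alike, with S100P at 9.43% to 10%, and the knockdown bars show S100P at 18.5% to 20% and a visible S100A9 band of 1.06% to 1.13%.

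The files also give a mean transcript length per gene, which moves when the balance of a gene's transcripts moves. For S100A13 it was 682, 676 and 678 bases in knockdown replicates 1, 2 and 3, against 695, 694 and 691 bases in scramble replicates 1, 2 and 3. For S100A16 it was 1229, 1231 and 1227 bases in the knockdown libraries, against 1240, 1239 and 1240 bases in the scramble libraries. S100A4, the remaining member with several transcripts and a length in every library, was at 518 to 521 bases in knockdown and 522 to 524 bases in scramble. All 3 were shorter in every knockdown library, and among the 7518 tested genes whose length varied between libraries 5.73% were shorter in every knockdown library. The ranges of S100A4 nearly met, and nothing is read from this count.

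Of the 10 other S100 genes, 6 were listed in any file and S100A14 and S100A3 had enough counts to be tested. S100A14, an epithelial S100 protein whose gene lies between S100A16 and S100A13, had 18, 20 and 15 counts in knockdown replicates 1, 2 and 3, against 2, 2 and 1 in scramble replicates 1, 2 and 3. It rose to 1.76 ± 0.256 CPM in knockdown, against 0.156 ± 0.0513 CPM in scramble (SD, n = 3 each; log2 fold change 3.39, SE 0.42, adjusted p = 0.00099 by edgeR). Leaving out scramble replicate 3 gave 3.16 (adjusted p = 5.32e-05). Its summed counts of 53 and 5 in knockdown and scramble give a ratio of 11.2 (95% exact binomial interval 4.52 to 36, counting error only). S100A3, a protein of the hair cuticle, had 78, 60 and 54 counts in the knockdown libraries and 41, 45 and 53 in the scramble libraries (log2 fold change 0.55, adjusted p = 0.161 by edgeR), or 0.68 when scramble replicate 3 is left out (adjusted p = 0.00887). It overlaps S100A4 on the same strand, so its count depends on how reads were divided between them. S100A7, or psoriasin, had 7 counts in knockdown and 1 in scramble, a ratio of 7.42 with an interval of 0.953 to 334, and S100A12, S100A7A, S100B and S100Z were listed in no library.

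Genes between the S100 genes on chromosome 1 were mostly silent. In the RefSeq order of protein-coding genes from S100A10 to S100A1, 47 genes are not S100 genes, and they include the late cornified envelope and small proline-rich genes of skin. Of these 8 were listed in any file and 3, the filaggrin-type genes HRNR, FLG and FLG2, had enough counts to be tested. HRNR averaged 4.39 CPM in knockdown and 2.75 CPM in scramble (log2 fold change 0.67, adjusted p = 0.131 by edgeR) and FLG 3.66 CPM in knockdown and 2.77 CPM in scramble (0.40, adjusted p = 0.3). With edgeR 0 of the 3 were called, 1 had an unadjusted p under 0.05, and DESeq2 and limma-voom called 0. Without scramble replicate 3, 1 of 4 was called, TCHH (trichohyalin, named after its values were seen), at 1.26 CPM in knockdown and 0.44 CPM in scramble. PGLYRP4, the protein-coding neighbour of S100A9 on one side, had 1 count in the 6 libraries, and S100A12, the neighbour on the other side, had none. S100A9 at 6.29 and S100A14 at 3.39 were therefore set among genes that stayed near 0 counts (S100A8, S100A12, PGLYRP4) or had small differences (S100A16 at 0.30, S100A13 at 0.21).

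**Figure D4:**
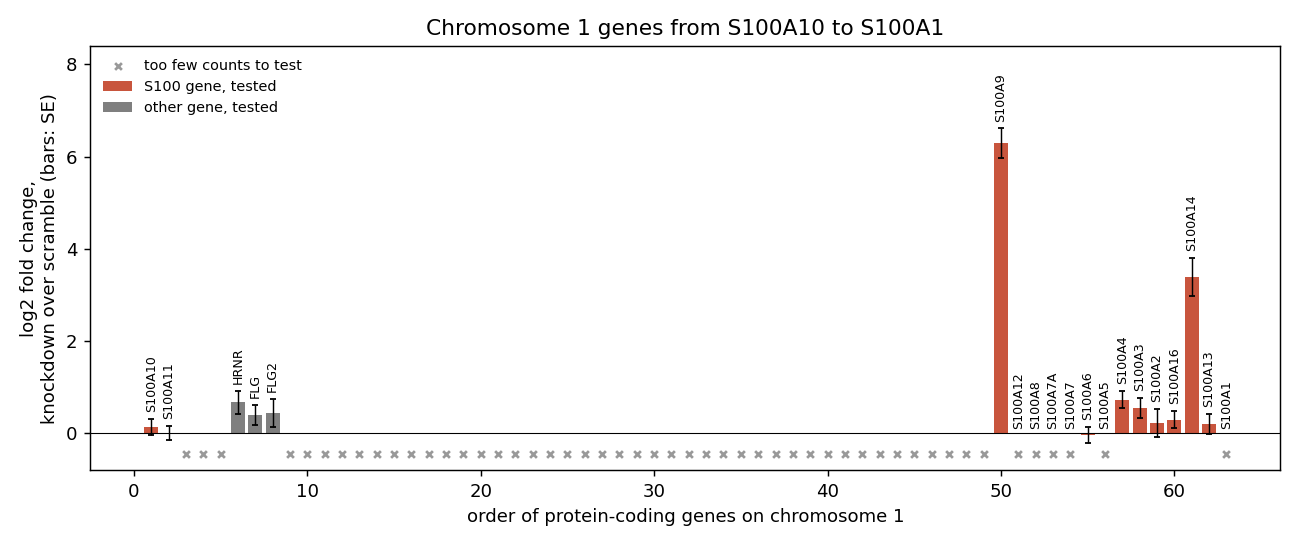
Log2 fold change (vertical axis, knockdown over scramble, bars for the SE) of the protein-coding genes from S100A10 to S100A1 by their order on chromosome 1 (horizontal axis). Crosses mark genes with too few counts to test; S100A9 at 6.29 and S100A14 at 3.39 stand out from neighbours that were not measured or lay below 1.

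Around S100P on chromosome 4, all 10 nearest protein-coding genes were tested, and TBC1D14, a regulator of autophagosome formation, was the one called, or 10% beside 11.5% of all genes. Without scramble replicate 3, 7 of the 10 were called, or 70% beside 49.5%, and 2 were with limma-voom or the replicate block. TBC1D14 rose to 319 ± 8.99 CPM in knockdown, against 199.6 ± 23.2 CPM in scramble (SD, n = 3 each; log2 fold change 0.67, adjusted p = 0.0169 by edgeR), and the call was lost without any 1 library other than scramble replicate 3 (adjusted p = 0.0691 to 0.115). MRFAP1 averaged 275 CPM in knockdown and 263 CPM in scramble (0.06, adjusted p = 0.848). PPP2R2C, a phosphatase subunit, averaged 91.3 CPM in knockdown and 127 CPM in scramble (-0.47, adjusted p = 0.0852). Without scramble replicate 3 edgeR called MRFAP1 higher (0.20, adjusted p = 0.000167) and PPP2R2C lower (-0.38, adjusted p = 5.57e-06). CFAP184, named after its values were seen, had the highest fold change of the 10, with 24, 22 and 21 counts in knockdown replicates 1, 2 and 3, against 2, 4 and 15 in scramble replicates 1, 2 and 3 (log2 fold change 1.73, adjusted p = 0.0672 by edgeR, and 2.95, adjusted p = 2.24e-05, when scramble replicate 3 is omitted).

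Among the annexins, the calcium-dependent membrane proteins that several S100 dimers bind, 2 of 11 tested rose and 1 fell, or 27.3% beside the 11.5% of all genes, with a median log2 fold change of -0.02 against 0.02 over all genes. With scramble replicate 3 left out, 6 rose and 3 fell, or 81.8% beside 49.5%. ANXA8 rose to 41.1 ± 3.38 CPM in knockdown, against 3.91 ± 1.08 CPM in scramble (SD, n = 3 each; log2 fold change 3.39, SE 0.23, adjusted p = 3.14e-05 by edgeR). Its near-identical copy ANXA8L1 is listed too, so its count is uncertain. ANXA1, the partner of S100A11, rose to 978 ± 44.4 CPM in knockdown, against 577 ± 165 CPM in scramble (SD, n = 3 each; log2 fold change 0.76, adjusted p = 0.0473), a call lost with RLE scaling (adjusted p = 0.0539), without any 1 knockdown library (0.135 to 0.18) and without scramble replicate 2 (0.0705). ANXA3 fell to 51.7 ± 0.559 CPM in knockdown, against 101 ± 22.6 CPM in scramble (SD, n = 3 each; log2 fold change -0.97, adjusted p = 0.0111), and was not called without any 1 knockdown library (0.0688 to 0.0723). ANXA2, the partner of S100A10 and the most abundant annexin here, averaged 2697 CPM in knockdown and 2742 CPM in scramble (-0.02, adjusted p = 0.95, and 0.15, adjusted p = 2.68e-05, without scramble replicate 3), so with all libraries the differences of S100A10 and ANXA2 both lay within the spread of the scramble libraries. ANXA5 averaged 290.3 CPM in knockdown and 358 CPM in scramble (-0.30, adjusted p = 0.281, and -0.16, adjusted p = 0.00374, without scramble replicate 3).

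Of 7 cell surface proteins reported to bind released S100 proteins, 4 had enough counts to be tested and BSG rose, or 25% beside the 11.5% of all genes (median log2 fold change 0.28). The count without scramble replicate 3 was 2 higher and 1 lower, or 75% beside 49.5%. BSG encodes basigin, a reported binder of S100A9 that also carries lactate transporters to the membrane. It measured 1649 ± 17.8 CPM in knockdown, against 675 ± 157 CPM in scramble (SD, n = 3 each; log2 fold change 1.29, SE 0.17, adjusted p = 0.00163 by edgeR), and no knockdown library overlapped a scramble library. NPTN, a relative of basigin that binds S100A8, was at 149.5 CPM in knockdown and 107 CPM in scramble (0.48, adjusted p = 0.0522). ALCAM was at 146 and 138 CPM in knockdown and scramble (0.08, adjusted p = 0.893). AGER, the RAGE gene, is named outside the rule because it is the best known receptor. It was at 3.29 CPM in knockdown and 5.16 CPM in scramble (-0.65, adjusted p = 0.106). Without scramble replicate 3 edgeR called NPTN higher (0.49, adjusted p = 1.55e-08) and ALCAM lower (-0.21, adjusted p = 0.000415). AGER was not called there (-0.48, adjusted p = 0.0793). TLR4 and its cofactor LY96 had at most 3 counts in any library, so the TLR4 receptor of calprotectin was at the limit of detection in both groups.

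Of 14 tested intracellular partners other than annexins, 2 rose and 1 fell, or 21.4% beside 11.5% of all genes (median log2 fold change 0.16). Omitting scramble replicate 3, 6 rose and 6 fell, or 85.7% beside 49.5%, and the median was -0.04. CACYBP, the calcyclin-binding protein that takes its name from S100A6, rose to 126 ± 1.73 CPM in knockdown, against 67.0 ± 3.15 CPM in scramble (SD, n = 3 each; log2 fold change 0.91, SE 0.14, adjusted p = 0.00332 by edgeR), while S100A6 itself was at -0.04. CYBA, a subunit of the NADPH oxidase that calprotectin binds in neutrophils, rose to 61.1 ± 2.31 CPM in knockdown, against 34.7 ± 6.54 CPM in scramble (SD, n = 3 each; 0.82, adjusted p = 0.0169), and its oxidase partner CYBB had at most 5 counts in any library. SYT1, a synaptotagmin that joins S100A13 in the release of FGF1, fell to 3.56 ± 0.65 CPM in knockdown, against 10.1 ± 4.82 CPM in scramble (SD, n = 3 each; -1.5, adjusted p = 0.0324). The CYBA and SYT1 calls were lost without any 1 library other than scramble replicate 3 (adjusted p = 0.0662 to 0.104 and 0.0825 to 0.126), and the SYT1 call also by limma-voom (0.0814). MYH9, the myosin chain bound by S100A4, averaged 869 CPM in knockdown and 1121 CPM in scramble (-0.37, adjusted p = 0.2). AHNAK, which binds the complex of S100A10 and annexin A2, averaged 912 CPM in knockdown and 897 CPM in scramble (0.02, adjusted p = 0.967). Without scramble replicate 3 edgeR called MYH9 (-0.18, adjusted p = 1.91e-05) and AHNAK (-0.24, adjusted p = 3.18e-05) lower.

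Of 14 tested transcription factors reported to act on S100 genes, 2 rose and 3 fell, or 35.7% beside 11.5% of all genes (median log2 fold change -0.16). When scramble replicate 3 was omitted, 4 rose and 8 fell, or 85.7% beside 49.5%. JUN, FOSL1 and ATF3 fell, and KLF4 and FOS rose. JUN, a subunit of AP-1, measured 35.2 ± 1.67 CPM in knockdown, against 82.2 ± 15.4 CPM in scramble (SD, n = 3 each; log2 fold change -1.22, adjusted p = 0.00243 by edgeR). FOSL1 had 12.6 ± 0.693 CPM in knockdown, against 28.7 ± 5.76 CPM in scramble (SD, n = 3 each; -1.18, adjusted p = 0.00385), and ATF3 57.8 ± 2.49 CPM in knockdown, against 119.9 ± 26.3 CPM in scramble (SD, n = 3 each; -1.05, adjusted p = 0.00625). KLF4, a factor of epithelial differentiation, rose to 73.3 ± 4.79 CPM in knockdown, against 41.1 ± 6.26 CPM in scramble (SD, n = 3 each; 0.84, adjusted p = 0.0121), a call lost without any 1 knockdown library or scramble replicate 2 (0.0548 to 0.0914). FOS, a partner of JUN in AP-1 that was named after its values were seen, rose to 12 CPM in knockdown, against 7.09 CPM in scramble (0.76, adjusted p = 0.0355), a call lost without any 1 library other than scramble replicate 3. JUNB, another AP-1 subunit named after its values were seen, averaged 97.5 CPM in knockdown and 125 CPM in scramble (-0.36, adjusted p = 0.276). Without scramble replicate 3 it was at -0.15 (adjusted p = 0.0279 by edgeR). CEBPB, a C/EBP factor of myeloid and epithelial cells, averaged 204 CPM in knockdown and 222 CPM in scramble (-0.13, adjusted p = 0.772). HIF1A averaged 203 CPM in knockdown and 232 CPM in scramble (-0.19, adjusted p = 0.723). Without scramble replicate 3 edgeR called HIF1A lower (-0.48, adjusted p = 6.67e-10) but did not call CEBPB (0.10, adjusted p = 0.363). SPI1 had at most 5 counts in any library and TP63 at most 6.

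**Figure D5:**
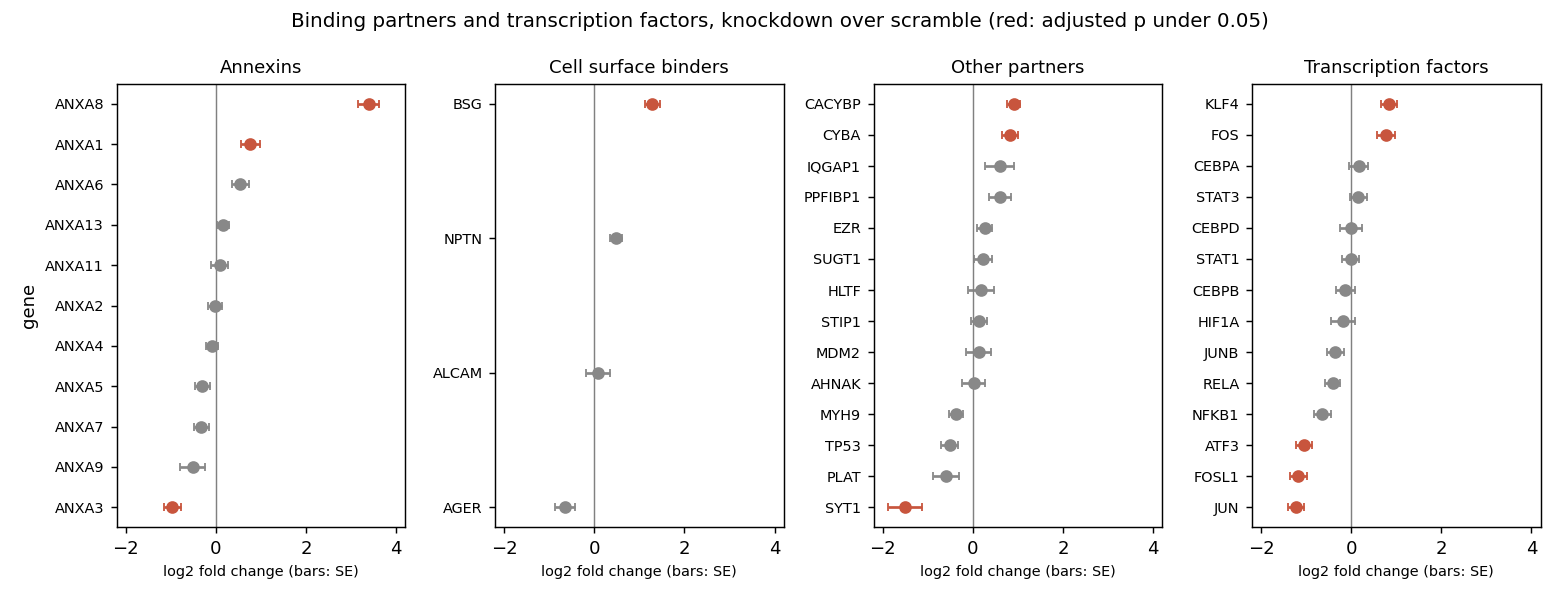
Log2 fold change (horizontal axis, knockdown over scramble, bars for the SE) of tested annexins, cell surface proteins that bind S100 proteins, other intracellular partners and transcription factors, 1 panel each. Red marks genes with an adjusted p under 0.05 by edgeR: ANXA8 at 3.39 and BSG at 1.29 lie at the right, and SYT1 at -1.5 and JUN at -1.22 at the left.

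Secreted proteins of the acute phase and of mucosal defence were measured because S100A9 is counted among the latter. Of 7 tested, 2 rose, or 28.6% beside 11.5% of all genes (median log2 fold change 0.15). Leaving out scramble replicate 3, 9 were tested, 5 rose and 1 fell, or 66.7% beside 49.5%, and the median was 1.21. Among those 5 was PI3, the protease inhibitor elafin, named after its values were seen, with 14, 10 and 9 counts in the knockdown libraries and 0, 0 and 2 in the scramble libraries. C3, the central complement component, rose to 93.2 ± 2.24 CPM in knockdown, against 9.81 ± 3.17 CPM in scramble (SD, n = 3 each; log2 fold change 3.25, SE 0.23, adjusted p = 4.91e-05 by edgeR), and SLPI, a leukocyte protease inhibitor of mucosal secretions, to 29.8 ± 1.27 CPM in knockdown, against 13.7 ± 3.94 CPM in scramble (SD, n = 3 each; 1.12, adjusted p = 0.00988, and 0.0555 without knockdown replicate 2). Ceruloplasmin (CP) averaged 77.5 CPM in knockdown and 83.2 CPM in scramble (-0.10, adjusted p = 0.861). Lysozyme (LYZ) averaged 14.9 CPM in knockdown and 14.8 CPM in scramble (0.01, adjusted p = 0.973). Without scramble replicate 3 edgeR called CP lower (-0.39, adjusted p = 4.36e-06) but did not call LYZ (-0.14, adjusted p = 0.312).

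Markers of squamous epithelium, where S100A2, S100A7, S100A8 and S100A9 are abundant, stayed low. Of 11, IVL, SPRR1B, SPRR3 and CRNN were listed in no library, and the list summed to 6.50, 7.39 and 5.56 CPM in the knockdown libraries, against 6.04, 5.48 and 5.91 CPM in the scramble libraries. Of the 3 tested, KRT6A, a keratin with near-identical copies, rose to 1.5 ± 0.199 CPM in knockdown, against 0.0323 ± 0.0559 CPM in scramble (SD, n = 3 each; adjusted p = 0.00123 by edgeR; 1 count in scramble). KRT4 fell (log2 fold change -1.09, adjusted p = 0.0397), a call lost by DESeq2 (0.17), with the replicate block (0.0641) and without any 1 library other than scramble replicate 3 (0.0649 to 0.189), and DSG3 was at -0.05 (adjusted p = 0.928).

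By likeness of the profile over the 6 libraries, measured as the Euclidean distance between log2 CPM values centred on each gene's mean, the nearest of 14803 other tested genes to S100A9 were BMP2 (distance 0.764), TRIM31 (1.10), CELF2 (1.42) and CRB1 (1.43), and BMP2 was the 1 gene within a distance of 1. BMP2 averaged 78.9 CPM in knockdown and 1.92 CPM in scramble, and CELF2 10.5 CPM in knockdown and 0.125 CPM in scramble. Such a distance depends largely on the size of the difference between groups, and these genes had log2 fold changes of 5.28 to 6.26. S100A9 was chosen on that contrast, so nothing is read from the likeness. S100A2, whose profile was nearly flat, had 8421 genes within the same distance, the nearest being HOXB-AS3 (0.113), SDF2 (0.137), ACAD8 (0.145) and MAMDC4 (0.161).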

How the data were processed

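Per the labels' protocols, RNA was selected with oligo-dT beads and made into libraries with a TruSeq kit; the submitters' processing notes name RSEM, Bowtie2, BWA and the build hg19, with no role or version for any of them. The authors deposited RSEM expected counts per gene for each library, which are estimated counts, beside FPKM values, per the file headers, and a mean transcript length. Files list no gene at 0, so a missing gene was taken as 0. Of 20824 Entrez IDs 20727 were matched to symbols by the RefSeq table of GRCh38.p14, used for names and gene order; 97, with 0.147% of the counts, were not. A count of 0 allows up to 3 counts, or 0.282 to 0.293 CPM before TMM scaling.

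Whole-number roundings of the expected counts were tested by edgeR 4.0.16 (R 4.3.3) (filterByExpr, minimum count 10 and minimum total 15, TMM, glmQLFit and glmQLFTest without covariates, Benjamini-Hochberg adjustment over 14812 genes, threshold 0.05). Each SE is the size of the log2 fold change divided by √F, and SDs are over 3 libraries. Alternatives used RLE or upper-quartile scaling, other filters, a replicate block, the omission of each library in turn, DESeq2 1.42.0 and limma-voom 3.58.1. A correction for GC content and length (splines with 5 degrees of freedom, 14231 genes) was added after the data were seen. Tested on simulated data with the spread of all 6 libraries, the fit on 14652 genes recovered 1.5% of 1.5-fold, 52.2% of 2-fold and 100% of 4-fold changes, with 10 false calls. The simulation changed 200 genes and drew each count independently. In the data the common coefficient of variation was 18.9%, and 2.97% without scramble replicate 3, so these rates do not describe this design.

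The members and lists were chosen with earlier results of these data known, so nothing is read from the share of a list that was called. Named are the members, C19orf12, up to 4 called genes with the smallest p and the 2 most abundant uncalled genes of each list, the 3 most abundant markers of each cell type and the 4 genes nearest in profile to S100A9 and S100A2; others are marked. Motifs were searched in RefSeq promoters (250 bases before to 50 after the start). Counting intervals and limits cover counting error only.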

Additional observations from a re-analysis of the deposited data

How the results depend on the processing

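The log2 fold changes of S100A9 and S100P, which were among the values that chose the genes and are given as a description, ran from 5.87 to 6.86 and from 1.15 to 1.49 when a library was left out. The number of all genes called, 1708, lay between 729 and 7439 when a library was left out, the highest without scramble replicate 3 and 729 to 766 without a knockdown library, and was 4854 with the correction for GC content and length. Of the S100 members 3 were called, 2 to 8 when a library was left out and 5 with that correction, and these counts are no test of the members. Of the other S100 genes, annexins, receptors, partners, factors and neighbours 14 of 58 were called, 7 to 46 when a library was left out and 31 with the correction. Without scramble replicate 3 the log2 fold change reversed to 0.17 for S100A6, 0.15 for ANXA2, -0.21 for ALCAM and -0.24 for AHNAK. With a library left out they ran from -0.15 to 0.17, -0.12 to 0.15, -0.21 to 0.26 and -0.24 to 0.19. All 6 libraries with the correction for GC content and length gave 0.04, -0.03, -0.09 and -0.06. The sign thus also turned there for S100A6, ALCAM and AHNAK, but not for ANXA2. Why scramble replicate 3 differs was not tested.

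The replicate number as a block left 1654 genes called, and of the genes named it ended the call of KRT4 (adjusted p = 0.0641). Same-numbered libraries did not deviate together (correlations of -0.0239, -0.0181 and -0.0232 across genes), so the numbers are not taken to pair the samples. At this depth S100A8 and the other S100 genes with fewer than 10 counts in every library could not be tested. For S100A7 a ratio with an interval for counting error is given instead.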
